A study of Sus scrofa with 12 samples.

Results

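The 13 mature microRNAs (miRNAs) described here are known from the gonads or from the response of ovarian cells to gonadotropins. They are every arm of miR-202, miR-132, miR-212, miR-31, miR-214, miR-199a, miR-199b, miR-224 and miR-383 among the 457 mature miRNAs of the deposited table. Small RNA was sequenced from the left ovaries of 6 sows, taken 4 days after the 4th delivery. The small litter size (SLS) group held ZD2, ZD3 and ZD12 from sows of 8.48 ± 0.53 piglets per litter, and the large litter size (LLS) group held ZD5, ZD7 and ZD8 from sows of 16.19 ± 0.43 piglets per litter (± SEM, which the methods name for results in general). All sows came from 1 piggery that was negative for PRRSV and PCV, and no treatment is named for either group. A second library of each ovary gave the expression of genes.

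A miRNA is cut from the 5′ or the 3′ arm (5p or 3p) of a folded precursor, the hairpin. It then guides Argonaute proteins to messenger RNAs (mRNAs) whose 3′ untranslated regions (UTRs) pair with its seed, bases 2 to 8, and lowers their stability and translation. The gonadotropins, FSH and LH, act on granulosa, theca and luteal cells through receptors that raise cyclic AMP, and miR-132 and miR-212 are a classical pair of miRNAs induced by that route. miR-202 is known as a gonad-enriched miRNA, miR-224 and miR-383 from granulosa cells, and miR-199a and miR-214 from mesenchymal and stromal cells.

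The mature sequences are shown to tell the arms and the seed families apart. They were read from the deposited table, 5′ to 3′, with T for U and the seed in capitals:
miR-202-5p: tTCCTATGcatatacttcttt
miR-202-3p: aGAGGTGTaggcatgggaa
miR-132: tAACAGTCtacagccatggtcg
miR-212: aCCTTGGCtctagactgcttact
miR-31: aGGCAAGAtgctggcatagctg
miR-224: cAAGTCACtagtggttccgttta
miR-383: cCACAGCActgcctggtcaga
miR-199a-5p: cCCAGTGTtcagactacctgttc
miR-199b-5p: cCCAGTGTttagactatctgtt
miR-199a-3p: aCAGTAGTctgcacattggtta
miR-199b-3p: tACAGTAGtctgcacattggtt
miR-214-5p: tGCCTGTCtacacttgctgtgc
miR-214-3p: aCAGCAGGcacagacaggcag

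Only miR-199a-5p and miR-199b-5p shared a seed, and they differed at positions C10T and C17T, counted from the 5′ end of miR-199a-5p. miR-199a-3p and miR-199b-3p shared a run of 21 bases and were offset by 1 base, so their seeds are listed apart. The listed miR-212 is the 5′ arm of its hairpin, and the listed miR-383 is the 3′ arm. In the reference, the 3′ side of the MIR212 hairpin holds the seed of miR-132, shown in capitals in tAACAGTCtccagtcacggcca, which differs from miR-132 at 5 of 22 bases. That arm is not a row of the table.

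All 13 sequences matched the Sscrofa11.1 reference over their whole length, at 10 hairpins annotated by RefSeq. MIR202 lies at chr14:141207134-141207213 on the minus strand, between the genes UTF1 and ADAM8. MIR132, at chr12:48162625-48162702, and MIR212, at chr12:48163054-48163135, are 351 bases apart on the minus strand between OVCA2 and HIC1. MIR31 lies outside protein-coding genes on the plus strand at chr1:201198732-201198809, with IFNE as the nearest of them at 21038 bases. Only protein-coding genes were searched as hosts and neighbours, so a non-coding gene around or next to a hairpin would not be seen. The miR-199 and miR-214 hairpins lie in introns of dynamin genes and on the strand opposite to them. MIR199A-1, at chr9:114533783-114533858, and MIR214, at chr9:114527992-114528101, are 5681 bases apart in DNM3. MIR199A-2 is in DNM2 at chr2:69558051-69558130 and MIR199B is in DNM1 at chr1:268691520-268691593, all of them on the minus strand. MIR224, at chrX:123283427-123283507, and MIR383, at chr17:2698041-2698122, lie in introns of GABRE and SGCZ on the same minus strand as these genes.

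The small RNA libraries held 3537619 to 9854086 reads, of which 97.6% to 98.7% fell on listed miRNAs. The deposited unit is RPM, the reads of a miRNA scaled to those of its library, and 3 reads were worth 0.304 to 0.848 RPM. LLS ovary ZD8 stood apart in its gene expression before any miRNA is considered. The 6 luteal markers (STAR, CYP11A1, HSD3B1, SCARB1, LHCGR and PTGFR) summed to 9167 to 12191 FPKM in the other 5 ovaries and to 122.9 FPKM in ZD8, where all 6 were lowest and none was at 0. The 6 oocyte markers summed to 124.0 FPKM in ZD8 against 6.47 to 22.7 FPKM, and the theca markers INSL3 and CYP17A1 to 415.0 FPKM against 9.31 to 74.4 FPKM. HSD17B6, also listed for theca, was not analysed here. Of the 6 granulosa markers, FOXL2, AMH and FSHR were highest and INHA was lowest in ZD8. INHBB was at 21.6 FPKM in ZD8, within the 4.57 to 84.6 FPKM of the others. CYP19A1, the aromatase, was listed at 0 in 5 of the 6 ovaries, ZD8 among them. FOXL2 had 37.8 FPKM in ZD8 and 6.11 to 30.6 FPKM elsewhere, and AMH had 12.01 FPKM in ZD8 and 0.208 to 7.21 FPKM elsewhere. The 5 endothelial markers summed to 115.4 FPKM in ZD8 against 244.2 to 370.6 FPKM (4 of 5 lowest), and the 5 immune markers to 38.3 FPKM against 17.4 to 30.3 FPKM (5 of 5 highest), with none at 0 in ZD8. The part of these differences in the miRNA results was not tested, and in whole ovaries fewer cells of a type and less RNA per cell cannot be told apart. The differences between groups below are given with and without ZD8.

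The 13 miRNAs together made up 5.11% to 11.3% of the library. miR-199a-3p was the most abundant and ranked 6 of 457 by its mean. It was followed in mean log2 level by miR-199a-5p, miR-199b-3p, miR-202-5p, miR-199b-5p, miR-214-3p, miR-132, miR-214-5p, miR-31, miR-202-3p, miR-212, miR-224 and miR-383. Of the 12 pairs of neighbours in this order, 6 did not differ beyond the spread of their paired difference. These were miR-199a-5p and miR-199b-3p, miR-199b-3p and miR-202-5p, miR-214-3p and miR-132, miR-132 and miR-214-5p, miR-214-5p and miR-31, and miR-202-3p and miR-212. miR-224 was lower than miR-212 in 6 of 6 ovaries, and miR-383 was lower than miR-224 in 6 of 6.

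**Figure D1:**
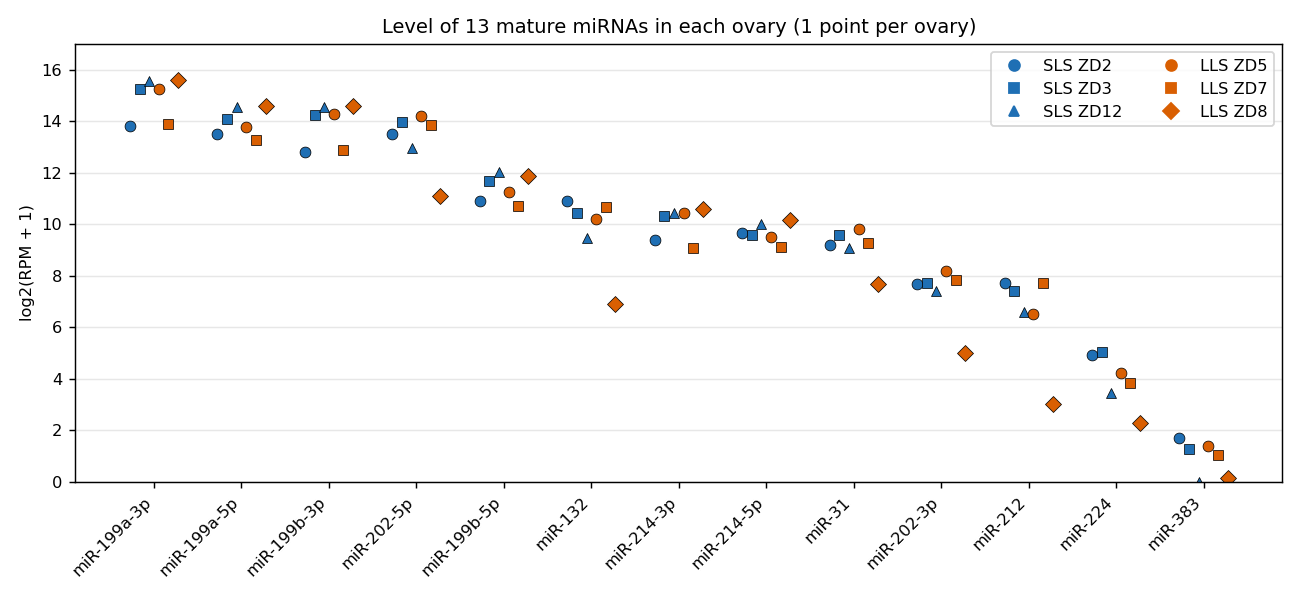
Level of each of the 13 miRNAs as log2(RPM + 1), with 1 point per ovary, SLS in blue and LLS in orange, ordered by mean RPM. ZD8 (diamonds) lies below the other 5 ovaries for miR-202-5p, miR-202-3p, miR-132, miR-212, miR-31 and miR-224 (of all tested miRNAs, 39.9% were lowest in ZD8), and miR-383 is near 0 in every ovary.

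No member passed the test between the litter size groups. A call by limma needed an absolute log2 fold change over 1 with an adjusted p under 0.05. Of the 13 miRNAs, 0 were called, where 0% of the 353 tested miRNAs were called. At an unadjusted p under 0.05 there were 0 members and 0 of all tested miRNAs, and edgeR and DESeq2 on the recovered reads also called 0, with 4 and 7 of all tested miRNAs at an unadjusted p under 0.05 and no member among them. All 13 members passed the filter of 1 RPM in 3 libraries. The adjusted p of limma was 0.997 for each member, and 11 were lower and 2 higher in LLS. The median absolute log2 fold change was 0.26 over the members and 0.20 over all tested miRNAs. The SLS and LLS values overlapped for all 13 members, where 2.83% of the tested miRNAs had groups that did not overlap. The exact two-sided permutation test gave p from 0.3 to 1, and 3 ovaries against 3 cannot go below 0.1.

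Without ZD8, 0 of 13 members were called by limma, with adjusted p from 0.952 to 0.967. The groups then did not overlap for 2 of the 13, miR-202-3p (higher in LLS) and miR-214-5p (lower in LLS), against a background of 20.2% of 351 miRNAs. Leaving out ZD8 turned the sign of the fold change for 7 members, among them miR-202-5p, miR-202-3p, miR-132 and miR-31. The intervals of the differences stayed wide in both cases.

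**Figure D2:**
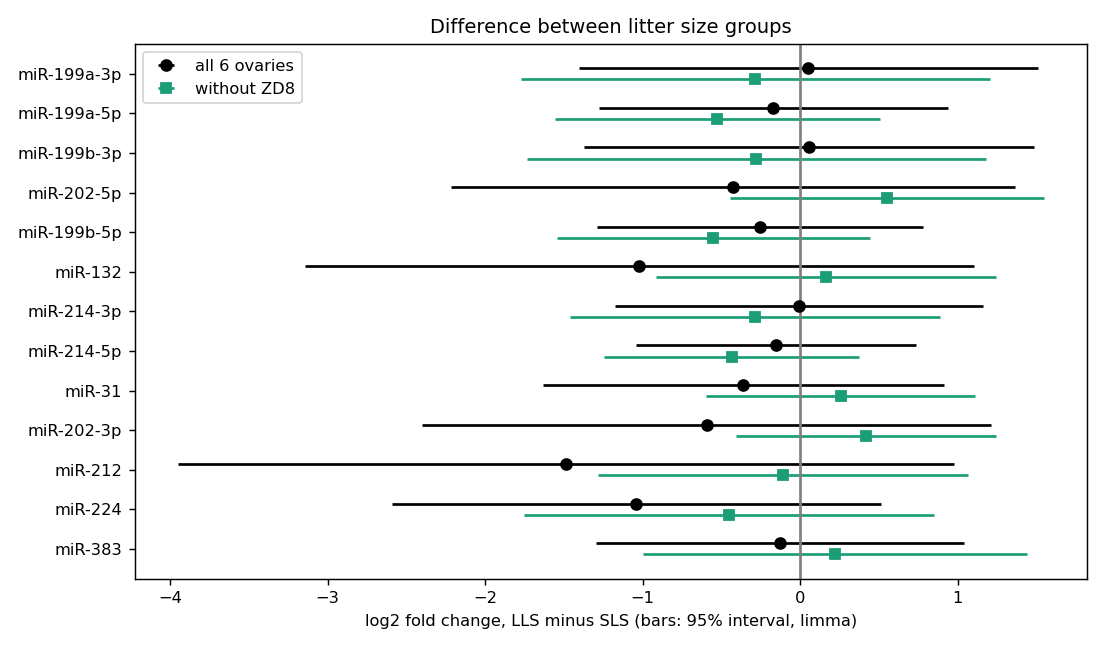
log2 fold change of LLS against SLS for each miRNA (x axis), with 95% intervals from limma, for all 6 ovaries (black circles) and without ZD8 (green squares). Every interval crosses 0, and the intervals of miR-202, miR-132 and miR-212 are narrower without ZD8.

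The member levels varied more between ovaries than those of most miRNAs. The SD of log2(RPM + 1) over the 6 ovaries had a median of 0.82 for the members and 0.55 for all 353 tested, and 10 of 13 members were above the latter. By ovary, the members fell into a set that was low in ZD8 and a set that was not. ZD8 was the lowest ovary for 6 of 13 members, a share near the 39.9% of all tested miRNAs that were lowest there. For the same 6 members it lay more than 2-fold below the lowest of the other 5 ovaries, against 14.4% of the tested miRNAs. It was the highest ovary for 5 of 13 members, against 15.9%, although by only 1.02- to 1.11-fold over the next ovary. The 6 low members hold both arms of miR-202 and the neighbouring miR-132 and miR-212. The 5 high ones are all arms of miR-199 or miR-214. Both counts thus rest on fewer separate measurements.

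miR-202, the gonad-enriched miRNA, was the most abundant of the set that was low in ZD8. miR-202-5p was at 11702 RPM in ZD2, 15906 in ZD3 and 8011 in ZD12, and at 19072 in ZD5, 14661 in ZD7 and 2204 in ZD8. The highest and the lowest ovary were thus both LLS, and the groups overlapped. The means were 11873 ± 3950 RPM in SLS and 11979 ± 8748 RPM in LLS (SD, n = 3). The log2 fold change was -0.42 ± 0.78 (SE) with an adjusted p of 0.997 by limma, and 0.55 ± 0.44 without ZD8. In ZD8 its level was 3.64-fold below the lowest other ovary.

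The other arm, miR-202-3p, was at 201.3 RPM in ZD2, 212.3 in ZD3 and 166.8 in ZD12, and at 288.2 in ZD5, 229.5 in ZD7 and 30.6 in ZD8. It followed the 5p arm, with ZD5 highest and ZD8 lowest, 5.45-fold below the lowest other ovary. ZD5 and ZD7 were above all 3 SLS ovaries and ZD8 was below them. Its log2 fold change was -0.59 ± 0.79 (SE), and 0.42 ± 0.36 without ZD8.

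miR-132 and miR-212 come from neighbouring hairpins and are induced together by LH signalling in granulosa cells. miR-132 was at 1915 RPM in ZD2, 1392 in ZD3 and 713.6 in ZD12, and at 1178 in ZD5, 1634 in ZD7 and 117.4 in ZD8. ZD8 was 6.08-fold below the lowest other ovary, and the remaining LLS ovaries lay within the SLS range. The log2 fold change was -1.02 ± 0.93 (SE) with all ovaries and 0.16 ± 0.47 without ZD8.

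miR-212 was at 210.7 RPM in ZD2, 167.1 in ZD3 and 96.3 in ZD12, and at 91.3 in ZD5, 212.2 in ZD7 and 7.02 in ZD8. Its value in ZD8 rested on 61 reads and was 13-fold below the lowest other ovary, the largest such gap among the members. The log2 fold change was -1.48 ± 1.08 (SE), and -0.11 ± 0.51 without ZD8. The ratio of miR-132 to miR-212 was between 7.41 and 12.9 in 5 ovaries and was 16.7 in ZD8.

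miR-31, known as a regulator of cell migration, was at 577.4 RPM in ZD2, 772.8 in ZD3 and 543.5 in ZD12, and at 911.2 in ZD5, 609.6 in ZD7 and 205.4 in ZD8. It was the steadiest member of this set, and the 5 ovaries other than ZD8 spanned 1.68-fold. The log2 fold change was -0.36 ± 0.56 (SE), and 0.26 ± 0.37 without ZD8.

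miR-224, which is known to act on the TGF-beta pathway in granulosa cells, was at 29.6 RPM in ZD2, 31.9 in ZD3 and 10.05 in ZD12. In LLS it was at 17.7 RPM in ZD5, 13.3 in ZD7 and 3.80 in ZD8. ZD12 was the lowest SLS ovary, below ZD5 and ZD7, so the groups overlapped. Its log2 fold change was -1.04 ± 0.68 (SE), with an adjusted p of 0.997 by limma. Its permutation p of 0.3 (exact, two-sided) was the smallest among the members. Without ZD8 the change was -0.45 ± 0.57. The neighbouring miR-452, 972 bases away, was at 35.9, 43.8 and 14.3 RPM in ZD2, ZD3 and ZD12 and at 27.2, 16.7 and 13.5 RPM in ZD5, ZD7 and ZD8, in the same order of the 6 ovaries as miR-224.

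miR-383 was at the limit of the depth. It had 13 reads in ZD2, 5 in ZD3 and 0 in ZD12, and 10 in ZD5, 7 in ZD7 and 1 in ZD8, or at most 2.23 RPM. For ZD12, the deepest library, 0 reads allow up to 0.304 RPM, a bound that covers counting error only. No difference between the groups was detectable at this depth.

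**Figure D3:**
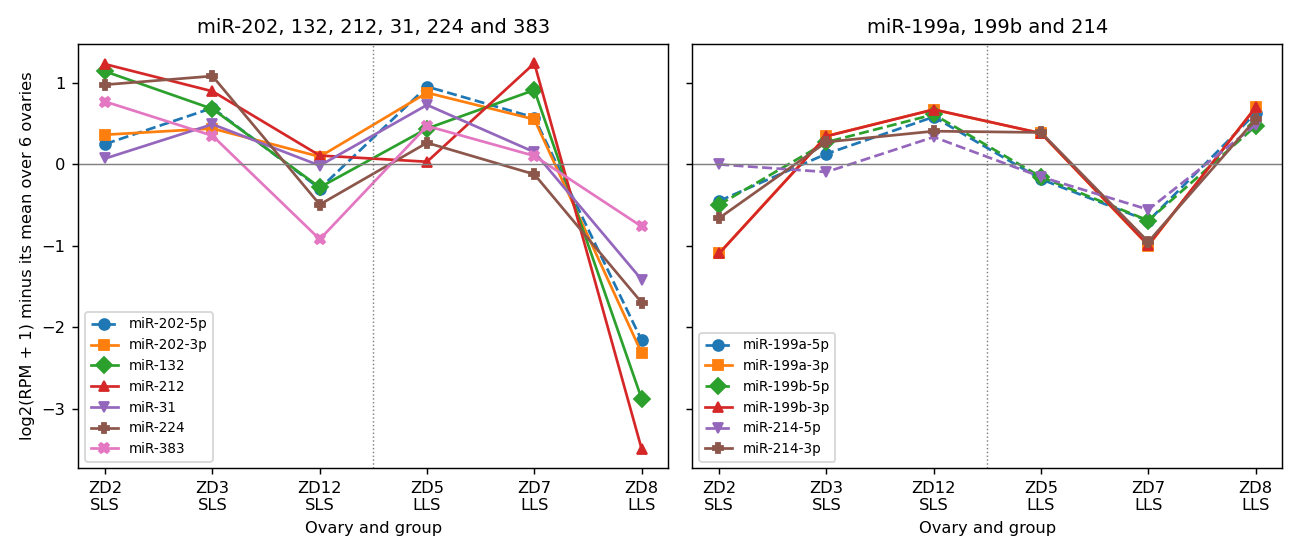
log2(RPM + 1) of each miRNA minus its mean over the 6 ovaries (y axis) in each ovary (x axis), with the SLS ovaries left of the dotted line. In the left panel the miR-202, miR-132, miR-212, miR-31 and miR-224 lines are lowest in ZD8, and in the right panel the miR-199 and miR-214-3p lines dip in ZD2 and ZD7, 1 ovary of each group, whereas miR-214-5p lies near its mean in ZD2.

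The miR-199 and miR-214 arms formed the other set and made up most of the member reads. The miR-199 rows alone ranged from 34424 RPM in ZD7 to 102497 RPM in ZD8. miR-199a-3p was at 14244 RPM in ZD2, 38625 in ZD3 and 48341 in ZD12, and at 39512 in ZD5, 15201 in ZD7 and 49346 in ZD8. The low ovaries were thus ZD2 of SLS and ZD7 of LLS, 2.54-fold below the next ovary, and the group means were close, at 33737 ± 17566 RPM in SLS and 34687 ± 17577 RPM in LLS (SD, n = 3). The log2 fold change was 0.05 ± 0.64 (SE), and -0.28 ± 0.65 without ZD8.

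miR-199b-3p was at 7095 RPM in ZD2, 19220 in ZD3 and 24128 in ZD12, and at 19717 in ZD5, 7610 in ZD7 and 24559 in ZD8. The ratio of miR-199a-3p to miR-199b-3p was 1.998 to 2.01 in all 6 ovaries. With 21 bases in common and 3 hairpins, of which 2 are miR-199a, reads of these rows may have been divided by the counting. The levels of miR-199a-3p and miR-199b-3p therefore cannot be told apart, and the rows count as 1 measurement.

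The 5p arms differ at 2 bases and were separate measurements to that extent. miR-199a-5p was at 11767 RPM in ZD2, 17577 in ZD3 and 24064 in ZD12, and at 14160 in ZD5, 9930 in ZD7 and 24836 in ZD8. miR-199b-5p was at 1924 RPM in ZD2, 3276 in ZD3 and 4148 in ZD12, and at 2436 in ZD5, 1682 in ZD7 and 3755 in ZD8. Both were lowest in ZD7 and ZD2, and their ratio lay between 5.36 and 6.61. Their log2 fold changes were -0.17 ± 0.48 and -0.26 ± 0.45 (SE), and -0.53 ± 0.45 and -0.55 ± 0.43 without ZD8.

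miR-214-3p was at 667.1 RPM in ZD2, 1275 in ZD3 and 1398 in ZD12, and at 1383 in ZD5, 545.1 in ZD7 and 1545 in ZD8. miR-214-5p was at 813.3 RPM in ZD2, 762.7 in ZD3 and 1027 in ZD12, and at 731.6 in ZD5, 553.6 in ZD7 and 1137 in ZD8. The 3p arm had the same pair of low ovaries as miR-199a-3p, whereas the 5p arm was lowest in ZD7 and ZD5. Their log2 fold changes were -0.01 ± 0.51 and -0.16 ± 0.39 (SE), and -0.29 ± 0.51 and -0.43 ± 0.35 without ZD8. ZD2 and ZD7 were the lowest pair of ovaries for 5 of the 13 members, which rest on fewer separate measurements, against 20.1% of the 353 tested miRNAs.

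The summed levels of marker genes in ZD2 and ZD7 are given beside this pattern. The fibroblast markers summed to 9674 FPKM in ZD2 and 4840 FPKM in ZD7, the highest pair, against 3377 to 4314 FPKM in the other 4 ovaries. This sum is mostly collagen (COL1A1, COL1A2 and COL3A1). COL1A1 (3002 and 1057 FPKM) and COL1A2 (2378 and 951 FPKM) were highest in ZD2 and ZD7. COL3A1 was at 3222 FPKM in ZD2 but lower in ZD7 (2213 FPKM) than in ZD5 (2262 FPKM). The markers other than collagen did not share the pattern of the sum. PDGFRA and DCN were second highest of the 6 ovaries in ZD2 (122.8 and 859.2 FPKM) and lowest and second lowest in ZD7 (93.9 and 453.1 FPKM). LUM was lowest in ZD2 (2.63 FPKM) and second lowest in ZD7 (4.02 FPKM). POSTN was at 87.4 FPKM in ZD2 and 67.9 FPKM in ZD7, within a range of 4.31 to 114.0 FPKM. In ZD8, where the miR-199a and miR-214 arms were highest, DCN (1854 FPKM) and PDGFRA (219.7 FPKM) were highest and 4 of the 7 were lowest. None of the 7 was at 0. The smooth muscle markers summed to 1796 FPKM in ZD2, 668.1 FPKM in ZD7 and 914.4 FPKM in ZD8, within a range of 313.9 to 1796 FPKM. MYH11 (190.3 FPKM) and DES (27.1 FPKM) were highest in ZD8, and 0 of the 5 were lowest there. The part of the fibroblast and smooth muscle markers in the result was not tested.

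Both arms were listed for miR-202, miR-214, miR-199a and miR-199b, and their ratio does not depend on the library total. miR-202 was read almost entirely from the 5p arm, 48.0- to 74.9-fold above the 3p arm. This ratio spanned 0.64 on the log2 scale over the ovaries, and 47 of the 53 hairpins with at least 5 RPM in each arm spanned more. It was 72.0 in ZD8, within the range of the other ovaries, although both arms were low there.

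Since the 3p rows of miR-199a and miR-199b cannot be told apart, their arms were also summed over both. The summed 3p arm of miR-199 was 1.56-fold above the 5p arm in ZD2 and 1.96-fold in ZD7, and 2.57- to 3.57-fold in the other 4 ovaries. At miR-214 the arms were near balance, with a 3p to 5p ratio of 0.820 in ZD2 and 0.985 in ZD7, and of 1.36 to 1.89 in the other 4 ovaries. miR-214 and the summed miR-199 had the same extremes, with the lowest share of the 3p arm in ZD2, then in ZD7, and the highest in ZD5. Both ranges, 1.20 on the log2 scale, were close to the median range of 1.13 over the 53 hairpins. Over all 53 hairpins the median balance was shifted towards 5p by 0.12 in ZD2 and 0.08 in ZD7 and towards 3p by 0.08 in ZD5, the same ovaries at a smaller size.

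No arm ratio separated the litter size groups beyond the spread between ovaries. The difference of LLS from SLS in the log2 ratio of 5p to 3p was 0.17 for miR-202, -0.24 for the summed miR-199 and -0.15 for miR-214. The exact two-sided permutation test over 3 and 3 ovaries gave p of 0.5, 0.6 and 0.8. Without ZD8 the differences were 0.13, -0.25 and -0.15. For the rows taken apart they were -0.31 for miR-199b (p = 0.4, exact) and -0.22 for miR-199a (p = 0.7, exact), and -0.27 and -0.24 without ZD8. Both rest on 3p rows that cannot be told apart.

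**Figure D4:**
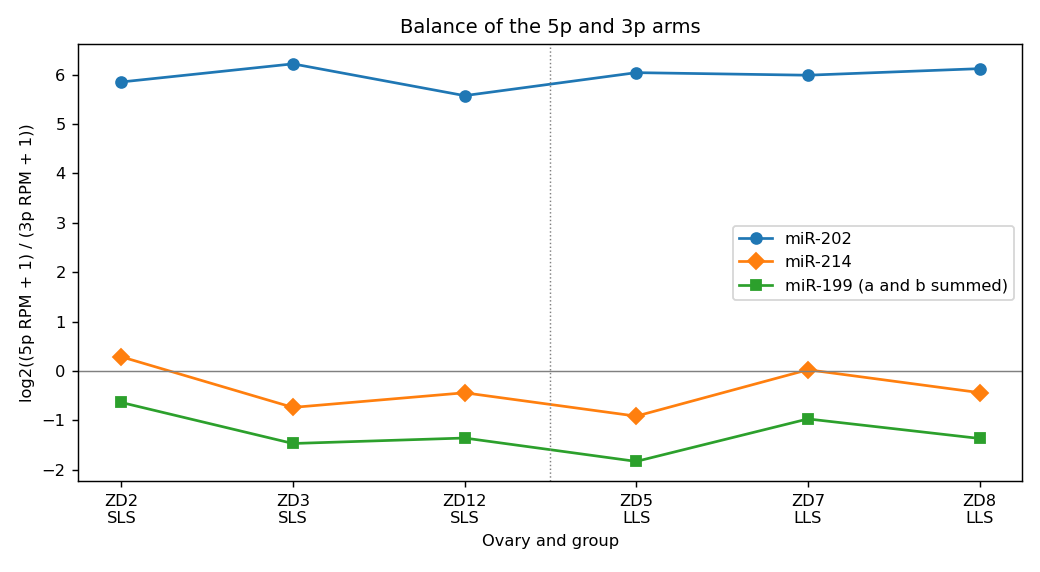
Balance of the arms as log2 of the ratio of 5p to 3p RPM, with 1 added to each, in each ovary (x axis), with the SLS ovaries left of the dotted line. The miR-202 line lies near 6 in every ovary, and the lines of miR-214 and of miR-199 (a and b summed) are highest in ZD2 and ZD7 and lowest in ZD5.

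For each member, the miRNA outside the set whose centred log2 profile over the 6 ovaries was nearest was found by the root mean square (RMS) difference. For miR-202-5p it was miR-1842 (RMS 0.18), at 24.8, 32.2 and 12.1 RPM in SLS and 36.3, 35.3 and 3.34 RPM in LLS. For miR-132 and for miR-212 it was the same miRNA, miR-370 (RMS 0.30 and 0.44), at 242.1, 152.1 and 66.6 RPM in SLS and 127.6, 298.6 and 12.9 RPM in LLS. For miR-199a-3p the nearest 3 were miR-26b-3p (0.17), miR-29c (0.19) and miR-574-3p (0.21), and all 3 were lowest in ZD2 and ZD7. miR-29c was also the nearest to miR-214-3p (0.15), and miR-26b-3p to miR-199b-3p (0.17).

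The remaining nearest rows were miR-145-3p for miR-199a-5p (0.13), miR-10388 for miR-199b-5p (0.11) and miR-19b for miR-214-5p (0.12). They were miR-454 for miR-31 (0.13), miR-2320-5p for miR-202-3p (0.27), miR-9843-3p for miR-224 (0.29) and miR-1839-3p for miR-383 (0.20). These are likenesses over 6 ovaries that share their libraries, and they are given as a description.

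The total RNA libraries listed rows for the 10 hairpin genes, in FPKM, the fragments scaled to gene length and library size. MIR202, MIR214 and MIR199A-1 were above 0 in all 6 ovaries, and MIR132, MIR199B and MIR383 were listed at 0 in all. MIR202 was at 12.7, 10.4 and 22.7 FPKM in ZD2, ZD3 and ZD12 (SLS), and at 5.86, 3.08 and 8.91 FPKM in ZD5, ZD7 and ZD8 (LLS). The groups did not overlap, as for 5.12% of the 12260 tested genes, but the log2 fold change of -1.25 ± 0.41 (SE) had an adjusted p of 0.999 by limma. Without ZD8 it was -1.55 ± 0.36 with an adjusted p of 0.186. ZD8 was the highest LLS ovary at this row, whereas both mature arms were lowest there. MIR31 was at 7.95 FPKM in ZD8 and at 0 to 1.70 FPKM in the others, and MIR212 at 3.02 FPKM and at 0 to 1.80 FPKM, both highest in ZD8, where mature miR-31 and miR-212 were lowest. Both extremes were common, with 44.6% of tested genes highest and 39.9% of tested miRNAs lowest in ZD8. MIR31 and MIR212 are 78 and 82 bases long and were each above 0 in only 4 ovaries. The number of fragments behind such low values is not known here. MIR199A-2 was above 0 in ZD8 alone (4.26 FPKM), and MIR224 in ZD2 and ZD12 alone.

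MIR214 was at 6.57, 3.69 and 11.9 FPKM in SLS and at 4.74, 2.99 and 27.6 FPKM in LLS. MIR199A-1 was at 4.75, 1.53 and 15.7 FPKM in SLS and at 2.29, 2.16 and 29.4 FPKM in LLS, in the same ovary order as above. Both rows were highest in ZD8 and second in ZD12, which were also the highest pair of ovaries for miR-199a-5p. The rows are 76 to 110 bases long, and whether the counting used strand is not given in the sources used here, so reads of the host introns cannot be told apart from reads of the hairpins.

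No host or neighbouring gene was called by limma, with 0 of 8 tested and 0% of all 12260 tested genes. DNM1, the dynamin gene around MIR199B, was at 4.71, 3.63 and 10.6 FPKM in SLS and at 3.49, 2.93 and 31.1 FPKM in LLS, highest in ZD8. DNM3, around MIR214 and MIR199A-1, was at 1.17, 2.26 and 1.66 FPKM in SLS and at 1.76, 1.09 and 3.62 FPKM in LLS. DNM3 was lowest in ZD7 and ZD2 and highest in ZD8, as was miR-214-3p. DNM2, around MIR199A-2, was at 26.8 FPKM in ZD8 and at 34.5 to 53.4 FPKM in the others. Without ZD8, DNM2 was higher and DNM1 lower in LLS with no overlap, 2 of 8 tested genes against 19% of 11985, and limma called 0 of them against 0.167% (20 genes).

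HIC1, next to MIR132, had 18.5 FPKM in ZD8 and 5.03 to 9.95 FPKM elsewhere, and OVCA2 was between 7.69 and 10.2 FPKM in all ovaries. ADAM8, next to MIR202, had 1.66 FPKM in ZD8 and 6.04 to 16.4 FPKM elsewhere, and MTAP and IFNE, next to MIR31, were at 7.44 to 16.8 and 0.305 to 1.85 FPKM. GABRE, UTF1 and SGCZ, the genes around or next to MIR224, MIR202 and MIR383, did not reach 1 FPKM in any ovary. DNM3OS was not analysed here.

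Of 41 genes of the gonadotropin pathway, from the receptors to the steroid enzymes, 37 were tested, and limma called 0 higher and 0 lower in LLS. The median log2 fold change of these genes was -0.29. The groups did not overlap for 4 of the 37, LHCGR, INHA and PTGS2 (lower in LLS) and ADCY3 (higher in LLS), against 5.12% of all tested genes. Without ZD8, limma called 0 of 36, the median was -0.07 and the groups did not overlap for 10, against 19% of all. Of the 37, 21 were lowest in ZD8, against 26.3% of all tested genes, and 10 were highest there, against 44.6%. HAS2 was not analysed here.

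At the top of the pathway, FSHR, the receptor of FSH, was at 0.263, 0.202 and 4.50 FPKM in SLS and at 2.68, 1.11 and 10.8 FPKM in LLS. LHCGR, the receptor of LH, was at 27.8, 70.5 and 46.1 FPKM in SLS and at 22.5, 24.2 and 10.4 FPKM in LLS, with a log2 fold change of -1.28 ± 0.43 (SE), and -0.92 ± 0.35 without ZD8. Its unadjusted p was 0.0177 and its adjusted p 0.999 by limma. FSHR was thus highest and LHCGR lowest in ZD8, where miR-132 and miR-212 were lowest. Of all tested genes, 44.6% were highest and 26.3% lowest in ZD8, and a link between these levels was not tested.

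Of the transducers of cyclic AMP, GNAS was at 181.5 FPKM in ZD8 and at 130.7 to 151.8 FPKM in the others. PRKACA was at 18.3 to 25.2 FPKM and CREB1 at 5.64 to 13.7 FPKM, with ZD8 within the range of the others. CREB1 is the transcription factor known to bind the miR-132 and miR-212 locus. The nuclear receptor NR5A2, a regulator of luteal steroid genes, was at 167.9 to 261.7 FPKM in 5 ovaries and at 1.69 FPKM in ZD8, while NR5A1 was at 13.1 to 30.6 FPKM with ZD8 highest by a small margin.

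Of the ovulatory mediators, AREG was at 6.83 to 66.8 FPKM in 5 ovaries and was listed at 0 in ZD8, and PTGS2 was at 0.343 to 1.81 FPKM. Of the steroid genes, STAR, which carries cholesterol into mitochondria, was at 2542 to 5418 FPKM in 5 ovaries and at 26.4 FPKM in ZD8. CYP17A1, the theca enzyme of androgen synthesis, had 117.2 FPKM in ZD8 and 7.02 to 29.4 FPKM elsewhere. INHA, the inhibin alpha subunit, was at 553.1, 376.0 and 726.0 FPKM in SLS and at 285.2, 162.4 and 66.4 FPKM in LLS, with an unadjusted p of 0.0121 and an adjusted p of 0.999 by limma. Its log2 fold change was -1.86 ± 0.58 (SE), and -1.30 ± 0.38 without ZD8.

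**Figure D5:**
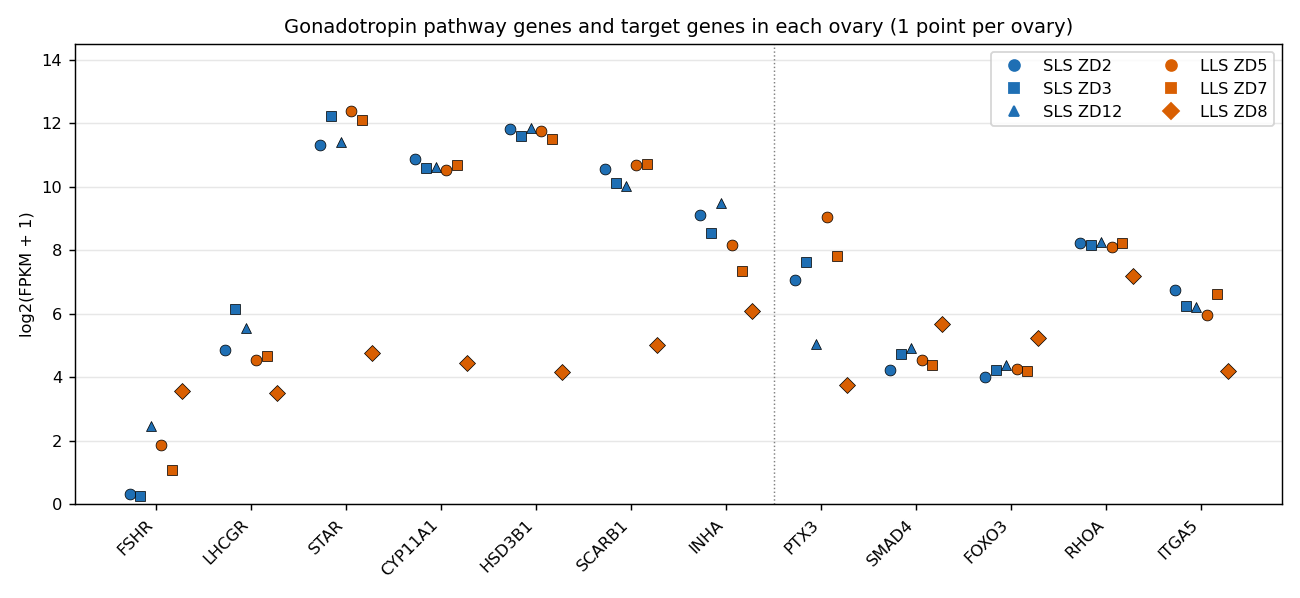
Level of 7 gonadotropin pathway genes (left of the dotted line) and 5 textbook target genes (right of it) as log2(FPKM + 1), with 1 point per ovary, SLS in blue and LLS in orange. ZD8 (diamonds) is lowest for LHCGR, STAR, CYP11A1, HSD3B1, SCARB1, INHA, PTX3, RHOA and ITGA5 and highest for FSHR, SMAD4 and FOXO3.

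Textbook targets of the members were searched for the 7 bases that pair with the seed, in the longest annotated 3′ UTR of each gene, in the sense of the mRNA. Of 15 pairs of a miRNA and a gene, 11 held at least 1 match. The genes were listed as known targets, so this count is not a result about these ovaries. The motifs were GACTGTT for miR-132, GTGACTT for miR-224, TCTTGCC for miR-31, ACACTGG for miR-199a-5p, ACTACTG for miR-199a-3p and CCTGCTG for miR-214-3p. A match is a description of the sequence and was not tested as a site. Those of miR-132, miR-224 and miR-31 are shown with 10 bases on each side and the match in capitals, since these miRNAs were low in ZD8:
RASA1 match 1: ctggattgcaGACTGTTcttactgtta
RASA1 match 2: atgaccgtttGACTGTTcaatgacttc
FOXO3 match 1: acccagcagaGACTGTTaacggcccct
FOXO3 match 2: tggttgatggGACTGTTtccagtgttg
NR4A2 match: agcagcttttGACTGTTtccagagtgc
SMAD4 match 1: gatttgatgtGTGACTTttttttcata
SMAD4 match 2: tcaattggcaGTGACTTtgtatagaaa
PTX3 match: atgctacaaaGTGACTTaacaaataca
HIF1AN match 1: tggactggacTCTTGCCatggccctgg
HIF1AN match 2: actcatgtccTCTTGCCtctggctgtg
HIF1AN match 3: gataaccctaTCTTGCCagggttatat
ITGA5 match: ctgtcctcagTCTTGCCagagatccgc
LATS2 match: cgtgatcgagTCTTGCCgttcacagcg

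On Sscrofa11.1, the capitals lie at chr2:94990639-94990645 and chr2:94990686-94990692 for RASA1, a brake on RAS signalling, on the plus strand. They lie at chr1:74755552-74755558 and chr1:74755756-74755762 (plus) for FOXO3 and at chr15:63487352-63487358 (minus) for NR4A2. For SMAD4, the common mediator of TGF-beta signals, they lie at chr1:100627763-100627769 and chr1:100627911-100627917 (plus), and for PTX3, a protein of the cumulus matrix, at chr13:97279413-97279419 (plus). Those of miR-31 lie at chr14:111647128-111647134, chr14:111653658-111653664 and chr14:111654090-111654096 (plus) for HIF1AN, at chr5:19587973-19587979 (minus) for ITGA5 and at chr11:1226494-1226500 (minus) for LATS2. Of 3′ UTRs of 80% to 125% of the same length, a match was held by 15.9% for RASA1, 28.6% for FOXO3, 8.44% for NR4A2, 47.0% for SMAD4 and 4.54% for PTX3, and by 42.1% for HIF1AN, 8.84% for ITGA5 and 11.9% for LATS2. No match of miR-132 was in the 3′ UTR used for CTBP1.

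RASA1 was at 7.36, 14.6 and 8.92 FPKM in SLS and at 11.3, 8.69 and 14.6 FPKM in LLS. FOXO3, a transcription factor that restrains follicle growth, was at 15.0 to 19.9 FPKM in 5 ovaries and at 37.1 FPKM in ZD8. SMAD4 was at 17.6 to 29.6 FPKM in 5 ovaries and at 49.9 FPKM in ZD8, and NR4A2 was at 0.720 to 1.29 FPKM and 2.30 FPKM. These 4 genes were highest in ZD8, RASA1 by a small margin, as were 44.6% of all tested genes.

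PTX3 went the other way, at 31.8 to 533.6 FPKM in 5 ovaries and at 12.5 FPKM in ZD8. CTBP1 was at 19.2 to 33.9 FPKM. RBMS1, a known target of miR-383, was at 16.4 to 24.9 FPKM.

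For miR-31, matches were in the 3′ UTRs of HIF1AN (3), ITGA5 (1) and LATS2 (1) and in none of that of RHOA. HIF1AN had 27.5 FPKM in ZD8 and 11.2 to 18.2 FPKM elsewhere, while the integrin ITGA5 was at 17.2 FPKM against 61.9 to 107.4 FPKM and RHOA at 144.7 FPKM against 277.2 to 308.3 FPKM. LATS2 was at 8.65 to 12.6 FPKM. For miR-199a-5p, HIF1A and CAV1 held 1 match each, and for miR-199a-3p MTOR held 1 and CD44 none.

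HIF1A was at 62.1 to 158.6 FPKM, MTOR at 13 to 19.2 FPKM and CAV1 at 38.3 to 111.0 FPKM, all 3 lowest in ZD8. No match of miR-214-3p was in the 3′ UTR used for EZH2, at 2.84 to 4.80 FPKM. The list also held MYCN, at 0.992 to 3.33 FPKM, for which no pair was searched. Of the 17 target genes, all of them tested, 7 were lowest in ZD8, against 26.3% of all tested genes, and 7 were highest, against 44.6%. Limma called 0, and the groups did not overlap for 2, CAV1 and CD44, both lower in LLS, against 5.12%. Without ZD8, limma called 0 of 16, and PTX3 (higher in LLS) joined them, 3 against 19%.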

How the data were processed

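Total RNA and small RNA of 6 whole left ovaries (3 SLS, 3 LLS) were used as deposited. The authors deposited the miRNA values in a table headed TPM whose unit is RPM, the reads of a mature miRNA scaled to those of its library, and all 2618 values above 0 gave whole reads within 0.01. The gene values were deposited by the authors as FPKM. The submitters' processing notes name HISAT2, BWA and Sscrofa11.1, and the miRNA annotation and the programs that counted reads are not given in the sources used here. All 12 value columns were used.

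R 4.3.3 was used with limma 3.58.1 (trended variance) on log2(value + 1) for features of at least 1 RPM or FPKM in 3 libraries, with Benjamini-Hochberg adjustment over 353 miRNAs or 12260 genes. A fold change on this scale understates that of low features. edgeR 4.0.16 (quasi-likelihood) and DESeq2 1.42.0 ran on the recovered miRNA reads as alternatives. The tests were tested on simulated data. Other alternatives were pseudocounts, no filter, TMM scaling, array weights and leaving out each ovary. Each ovary came from a separate sow, and the SLS and LLS libraries carry no pairing.

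The members and lists were chosen with earlier results of these data known. By rule, all members, their host and neighbouring genes and their nearest miRNA profiles were named, with genes of the pathway and target lists, and 3 genes of the target list are not reported here. The hairpin rows of the gene table, the pattern of ZD2 and ZD7 and the sums over miR-199a and miR-199b were chosen after their values were seen.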

Additional observations from a re-analysis of the deposited data

How the results depend on the processing

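The count of 0 called members held under every alternative run, and so did 0 called among all tested miRNAs and 0 in the gonadotropin pathway list. Without ZD7, 1 member had an unadjusted p under 0.05 by limma, and no member did in any other run. Over all tested miRNAs the smallest adjusted p of limma was 0.0691 without ZD8 and 0.318 with array weights. Over all genes, limma called 0 of 12260, with 216 at an unadjusted p under 0.05, and 20 of 11985 without ZD8. Of 169 member values under alternatives, 140 kept their sign and 29 reversed it, and none of them was past the threshold. With array weights, the log2 fold change turned to 0.16 for miR-202-5p, 0.19 for miR-202-3p, 0.0276 for miR-383, 0.0615 for miR-31, -0.17 for miR-199b-3p and -0.18 for miR-199a-3p. For miR-214-3p it turned to 0.0729 with TMM scaling, 0.0963 with edgeR and 0.14 with DESeq2. Without a change of sign, miR-212 moved to -0.78 with edgeR, -0.71 with DESeq2 and -0.64 with array weights, and miR-132 to -0.64, -0.57 and -0.24 in the same order. Among the other moves of this kind, miR-202-5p went to -0.16 with edgeR and -0.0956 with DESeq2. In the same order, miR-202-3p went to -0.28 and -0.21 and miR-383 to -0.50 and -0.49.

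When each ovary was left out in turn, the log2 fold change ranged from -1.01 to 0.55 for miR-202-5p, -1.18 to 0.42 for miR-202-3p, -1.73 to 0.16 for miR-132, -0.82 to 0.26 for miR-31, -0.62 to 0.22 for miR-383, -0.48 to 0.56 for miR-199a-3p, -0.48 to 0.57 for miR-199b-3p, -0.53 to 0.14 for miR-199a-5p, -0.57 to 0.0270 for miR-199b-5p, -0.34 to 0.46 for miR-214-3p and -0.43 to 0.0840 for miR-214-5p. It stayed negative for miR-212 (-2.48 to -0.11) and miR-224 (-1.55 to -0.45), where the values nearest to 0 are those without ZD8. The arm balance difference ranged from -0.43 to 0.0427 for miR-199a and from -0.38 to 0.15 for miR-214, and it reversed without ZD2 and without ZD5. It ranged from 0.0154 (without ZD12) to 0.34 (without ZD3) for miR-202 and from -0.54 (without ZD7) to -0.0882 (without ZD2) for miR-199b.

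The limits are 3 ovaries per group and the spread that ZD8 adds. At the depth of these libraries miR-383 had at most 13 reads in an ovary, so its test says little, and miR-224 rested on 33 to 173 reads. Whole ovaries do not show which cells held a miRNA. No paired analysis was possible because the replicate numbers of the SLS and LLS ovaries do not tie them to each other.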
